A study of Homo sapiens with 4 samples.

Results

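SR splicing factors are the serine- and arginine-rich RNA-binding proteins whose genes carry the symbols SRSF. The group described here holds 10 genes (SRSF1, SRSF2, SRSF3, SRSF4, SRSF5, SRSF6, SRSF7, SRSF9, SRSF10 and SRSF11), chosen by symbol, and all 10 were found among the 19749 gene symbols of the authors' deposited table. SRSF8 and SRSF12 are not in this group and were counted among the SR-related proteins. The samples were U87 cells, an established human glioblastoma line, given the small molecule YZ129 at 5 µM for 24 h (2 libraries) or the vehicle DMSO (2 libraries). The series title connects the compound with the pathway of the chaperone HSP90, the phosphatase calcineurin and the transcription factor NFAT, and the only comparison asked which poly(A) transcripts differed after treatment. A single cell line was used, and whether the libraries within a group are separate cultures is not stated in the labels, so p-values reflect a spread that may be technical.

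An SR protein binds short enhancer motifs in exons through an RNA recognition motif, and its arginine- and serine-rich tail helps bring the U1 particle and the U2AF factor to nearby splice sites. Kinases of the SRPK and CLK families phosphorylate that tail, which governs import into the nucleus, storage in nuclear speckles and release to active genes. Several SR proteins also leave the nucleus with mRNA, and many limit their own amount by splicing a poison exon into their transcript, which sends it to nonsense-mediated decay (NMD).

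The deposited data hold no value per library. For each gene the authors' deposited table gives the mean level (a normalized signal, not scaled for gene length), the log2 fold change, the standard error (SE) of that change and the adjusted p-value, and a gene was called at an adjusted p under 0.05. The mean level covers 8 libraries, 4 more than the samples described here, as read off the lowest values of that column. Genes with 2 reads in a single one of the other 4 still had a fold change, with medians by library between -0.0018 and -0.0024. The other 4 were thus part of the authors' fit, and the SEs may rest partly on them. How far they do is not stated in any source used here. The column of fold changes does not state its direction, and DMSO is named before the compound in the comparison's name. A positive value was read as higher with YZ129, from 12 genes that the heat shock factor HSF1 induces on loss of HSP90 function. Called negative were 0 and called positive 7, among them HSPA6 (2.64 ± 0.23 SE), BAG3 (0.99 ± 0.14) and HSPH1 (0.88 ± 0.14) in the authors' deposited table. That list was chosen with results known, and 5 of its genes did not pass. These include DNAJB1 (0.39 ± 0.14), HSP90AA1 (-0.04 ± 0.14) and HSPB1 (-0.21 ± 0.16) in the authors' deposited table. Under the opposite reading every fall below becomes a rise and every rise a fall. Of markers of the glioma and astroglial lineage, VIM (mean level 298885) and CD44 (134994) were abundant in the authors' deposited table. SLC1A3 stood at 1891, NES at 909, OLIG2 at 96.2, GFAP at 52.2 and FABP7 at 15.5, while S100B (1.12) and SOX2 (0.851) were close to 0. Blood, epithelial and endothelial markers were low, with PTPRC at 2.28, EPCAM at 18.1 and PECAM1 at 24.6 in the authors' deposited table. Neuronal markers were uneven, with SYT1 at 408, above GFAP, and RBFOX3 at 3.90.

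SRSF2 and SRSF6 were lower with YZ129, and the other 8 SR factors did not pass. SRSF2 stood 1.62-fold lower and SRSF6 1.51-fold lower. Under the opposite reading of the column they would be higher by the same factors. Of all 14812 tested genes 12.9% were called, 7.64% lower and 5.24% higher, against 2 of 10 SR factors lower and 0 higher. In bulk RNA, less transcript in each cell and fewer cells that express the gene cannot be told apart. The signs were uneven, with 9 members negative and 1, SRSF11, positive. That imbalance has to be read against genes of like level: 73.7% of the 2963 tested genes in the upper 2 level deciles, which hold all 10 members, were negative too, and 56.0% of all tested genes. The median of the members was -0.23, against -0.13 in those deciles and -0.05 over all tested genes.

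**Figure D1:**
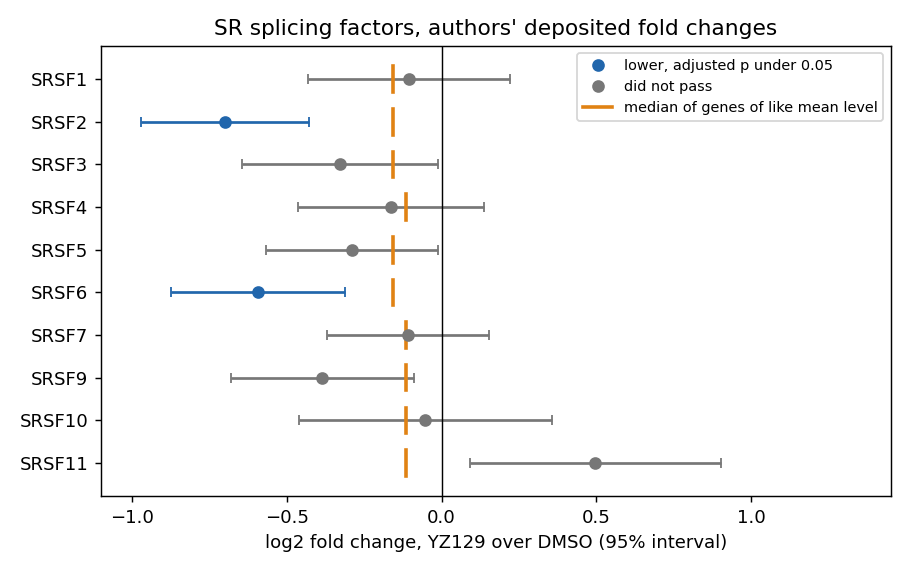
Log2 fold change of each SR factor, YZ129 over DMSO, on the horizontal axis, with its 95% interval from the deposited SE (bars); blue points passed an adjusted p of 0.05 and grey ones did not. The orange marks give the median of the genes in the same level decile, -0.16 or -0.12; SRSF2 (-0.70) and SRSF6 (-0.59) lie below it with their whole interval and SRSF11 (0.50) above it.

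SRSF2 binds exonic enhancers, stays in the nucleus for the most part and marks nuclear speckles. Its log2 fold change was -0.70 ± 0.14 (SE), with an adjusted p of 1.84e-05 from the Wald test in the authors' deposited table. The 95% interval of -0.97 to -0.43 corresponds to a fall of between 1.34-fold and 1.96-fold. Relative to genes of its level decile the change was -0.54, and it passed under every alternative tried. The mean level of SRSF2 was 10690 in the authors' deposited table. In GENCODE release 29, 36.7% of its exonic bases are shared with exons of MFSD11, a gene on the opposite strand. MFSD11 had -0.26 ± 0.14 and did not pass (adjusted p = 0.24) in the authors' deposited table. No source used here says how the authors treated strand, so reads over the shared bases cannot be assigned to SRSF2 or MFSD11.

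SRSF6, which regulates alternative exons in many tissues and is known from skin and Huntington disease work, had -0.59 ± 0.14 (SE), with an adjusted p of 0.00076 in the authors' deposited table. Its 95% interval of -0.87 to -0.31 corresponds to a fall of between 1.24-fold and 1.83-fold. Against its level decile SRSF6 stood at -0.44, and it also passed under every alternative tried. The call was closest to the threshold with fold changes centred by level decile (Wald test, adjusted p = 0.024). No exon of another gene overlaps SRSF6 in GENCODE release 29 (mean level 13694 in the authors' deposited table).

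SRSF4 and SRSF5 share the layout of SRSF6, with a pair of RNA recognition motifs before the arginine- and serine-rich tail. SRSF5, a factor known to respond to growth signals and glucose, had -0.29 ± 0.14 in the authors' deposited table, with an unadjusted p of 0.040 and an adjusted p of 0.17. SRSF4, which has a long tail, had -0.16 ± 0.15 (adjusted p = 0.55) in the authors' deposited table. Relative to its level decile SRSF5 stood at -0.13 and SRSF4 at -0.05. The difference between SRSF4 and SRSF6 was 0.43, with a 95% interval of 0.02 to 0.84 that treats the errors as independent. The bound nearest to 0 lies close to it. With fold changes centred by level decile the difference was 0.39, and its interval then holds 0. The difference between SRSF5 and SRSF6 was 0.30 with an interval of -0.09 to 0.70, which holds both 0 and a difference larger than the change of SRSF6 itself. SRSF4 and SRSF5 differed by 0.13 (interval -0.28 to 0.53).

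The promoters of SRSF6 and SRSF5 are set beside those of SRSF11, since these genes span the lower and the positive side of the group. Each line gives the 250 bases before an annotated start from RefSeq (GRCh38.p14), 5′ to 3′ on the strand of the gene; capitals mark matches, on either strand, to ACGTG (the core of the hypoxia response element), TGACG (the core of the cyclic AMP element), the CCAAT box, the sequence TATAAA, or the heat shock element pairs GAANNTTC and TTCNNGAA.
SRSF6, chr20:43457646-43457895, plus strand: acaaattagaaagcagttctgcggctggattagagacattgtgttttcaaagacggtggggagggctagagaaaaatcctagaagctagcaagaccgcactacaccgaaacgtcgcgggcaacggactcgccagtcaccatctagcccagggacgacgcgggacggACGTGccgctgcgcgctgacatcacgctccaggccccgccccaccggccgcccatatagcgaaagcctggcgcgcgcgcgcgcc
SRSF5, chr14:69766892-69767141, plus strand: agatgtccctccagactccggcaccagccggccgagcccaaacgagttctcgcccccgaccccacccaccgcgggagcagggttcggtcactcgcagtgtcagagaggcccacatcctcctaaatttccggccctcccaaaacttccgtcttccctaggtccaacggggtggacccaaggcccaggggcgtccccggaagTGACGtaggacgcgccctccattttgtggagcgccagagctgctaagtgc
SRSF11 upstream start, chr1:70205446-70205695, plus strand: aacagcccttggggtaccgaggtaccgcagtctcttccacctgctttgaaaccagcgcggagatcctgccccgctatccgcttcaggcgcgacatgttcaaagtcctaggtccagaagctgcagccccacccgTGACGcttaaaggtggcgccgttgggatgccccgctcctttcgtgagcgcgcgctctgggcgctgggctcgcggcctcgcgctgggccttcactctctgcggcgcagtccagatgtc
SRSF11 downstream start, chr1:70221130-70221379, plus strand: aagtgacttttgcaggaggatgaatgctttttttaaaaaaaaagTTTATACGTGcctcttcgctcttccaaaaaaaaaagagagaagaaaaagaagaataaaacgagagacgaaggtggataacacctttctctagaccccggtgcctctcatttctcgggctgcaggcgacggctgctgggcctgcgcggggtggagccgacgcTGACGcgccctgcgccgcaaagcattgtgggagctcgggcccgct

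Promoter entries were matched for 9 of the 10 members, with 11 starts in all; SRSF2 has no entry. SRSF6 holds 1 ACGTG, on its own strand. SRSF5 and the upstream start of SRSF11 each hold 1 TGACG and no ACGTG. At the downstream start of SRSF11 a TATAAA on the opposite strand overlaps an ACGTG, and a TGACG lies nearer the start. Over the group, ACGTG stood at 4 of 11 starts, against 18.5% of 35116 RefSeq promoters cut to the same length, and TGACG at 6 of 11, against 21.2%. CCAAT was found at 1 of 11 starts (32.0% of all), that of SRSF3, and TATAAA at 3 of 11 (10.7% of all). Neither heat shock element pair was found at any of the 11 starts, against 5.78% of all promoters for GAANNTTC and 6.62% for TTCNNGAA. The 6 starts with TGACG belong to 5 members, and the 2 windows of SRSF7 overlap. Median GC content was 61.6% at the members' starts and 58% over all promoters, and the counts were not adjusted for it. These are matches of letters and say nothing of binding.

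SRSF1 and SRSF9 form another related pair. SRSF1, the first SR protein studied in depth and a known oncogene product that also acts in export and translation, had -0.11 ± 0.17 (adjusted p = 0.75) in the authors' deposited table. Its interval of -0.43 to 0.22 leaves room for a fall of up to 1.35-fold. SRSF9, which has a short tail and binds enhancers much like those of SRSF1, had -0.39 ± 0.15 in the authors' deposited table, with an unadjusted p of 0.010 and an adjusted p of 0.070. SRSF9 was 1.31-fold lower by its point value and did not pass. The difference SRSF1 minus SRSF9 was 0.28, with an interval of -0.16 to 0.72. Both genes overlap others in GENCODE release 29. SRSF9 shares 46.2% of its exonic bases with GATC on the opposite strand, and GATC had 0.22 ± 0.14 (adjusted p = 0.34) in the authors' deposited table. SRSF1 shares 60.7% with 2 genes whose GENCODE symbols have no row in the authors' deposited table. AC015813.2, a protein-coding gene on the same strand as SRSF1, covers 56.6% of the exonic bases of SRSF1.

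SRSF3 and SRSF7, the small members that bind pyrimidine-rich or GA-rich RNA and act as adaptors for the export receptor NXF1, did not pass either. SRSF3, at -0.33 ± 0.16 in the authors' deposited table, had an unadjusted p of 0.043 and an adjusted p of 0.18. SRSF7, set apart by a zinc knuckle, had -0.11 ± 0.13 (adjusted p = 0.66) in the authors' deposited table. SRSF7 had the smallest SE of the group, in percentile 2.84 of its level decile, so a change of 0.36 or more in size would have been called. The difference SRSF3 minus SRSF7 was -0.22, with an interval of -0.63 to 0.19.

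SRSF11 was the only member with a positive value. This protein, also called p54, differs from the classical SR proteins in sequence and binds U2AF. It had 0.50 ± 0.21 in the authors' deposited table, 1.41-fold higher by its point value, with an unadjusted p of 0.016 and an adjusted p of 0.096. Relative to genes of its level decile the value was 0.61, and with all genes centred in that way SRSF11 passed (adjusted p = 0.031). Its relative SREK1, an SR-related protein that also contacts early splicing factors, had 0.37 ± 0.20 (adjusted p = 0.22) in the authors' deposited table. SRSF11 minus SREK1 came to 0.12 (interval -0.43 to 0.68). SRSF10, a splicing repressor when dephosphorylated in heat shock and mitosis, had -0.05 ± 0.21 (adjusted p = 0.91) in the authors' deposited table. Its interval of -0.46 to 0.36 is the widest of the group, and its paralog SRSF12, at a mean level of only 7.51, was not tested in the authors' deposited table.

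**Figure D2:**
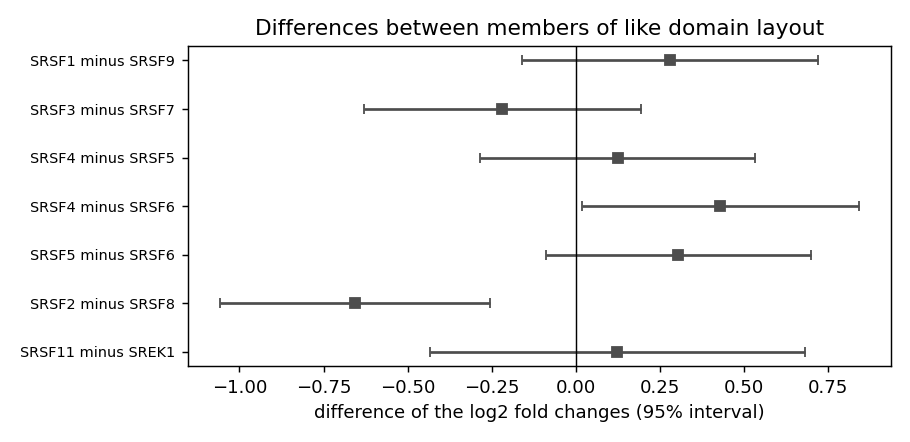
Difference of the log2 fold changes (first gene minus second, horizontal axis) for 7 pairs of tested genes with related proteins; squares are the differences and bars the 95% intervals from both deposited SEs. Without centring, the intervals of 2 pairs, SRSF4 minus SRSF6 (0.43) and SRSF2 minus SRSF8 (-0.66), do not hold 0. Those of the other 5 do.

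Apart from the pairs already given, SRSF2 was set against SRSF8, an intron-poor gene that arose from an SRSF2 copy. SRSF8 had -0.04 ± 0.15 (adjusted p = 0.90) in the authors' deposited table. The difference SRSF2 minus SRSF8 was -0.66, with an interval of -1.06 to -0.26, which was the largest among the 7 pairs of tested genes. The copies are alike in sequence, and reads may be shared between them. Pseudogenes named for SRSF1, SRSF9 and SRSF10 exist in GENCODE release 29 (SRSF1P1, SRSF9P1 and SRSF10P1), and none was analysed as a row of its own.

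Precision differed among members with similar levels. The SE of SRSF10 was 0.21 and that of SRSF11 also 0.21, in percentiles 92.6 and 92.1 of their level decile, whose median SE was 0.15. With those SEs only a change of at least 0.57 for SRSF10 or 0.56 for SRSF11 would have been called. SRSF1 (0.17, percentile 80.4) and SRSF3 (0.16, percentile 74.5) were also less precise than most genes of their decile. SRSF2 (0.14, percentile 19.6) and SRSF5 (0.14, percentile 27.5) were more precise. The mean levels ran between 3732 for SRSF4 and 14293 for SRSF1 in the authors' deposited table. The values in single libraries behind each SE were not analysed here.

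**Figure D3:**
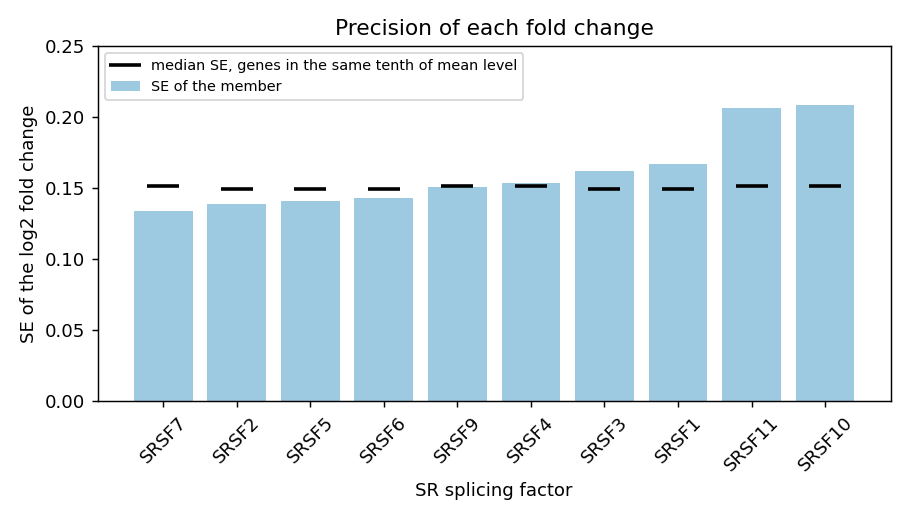
SE of the log2 fold change of each SR factor (bars, vertical axis, log2 units) with the median SE of all tested genes in the same level decile (black marks, 0.15 in both). SRSF10 and SRSF11 reach 0.21, while SRSF7, at 0.13, is below the median.

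The whole table sloped with level, which bears on how the signs of the group are read. The median change was 0.32 in the lowest level decile, -0.12 in the decile of SRSF4, SRSF7, SRSF9, SRSF10 and SRSF11, and -0.16 in the decile of SRSF1, SRSF2, SRSF3, SRSF5 and SRSF6. After the decile median was taken off, 6 members were negative and 4 positive, and SRSF1 (0.05), SRSF7 (0.01) and SRSF10 (0.06) changed sign. In the upper 2 deciles 11% of tested genes were called lower and 2.83% higher. The split of all calls also moved, with 1132 lower and 776 higher as deposited, 884 and 954 after centring on the median of all tested genes, and 804 and 920 after centring by decile. SRSF2 and SRSF6 were lower and passed in each of these.

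**Figure D4:**
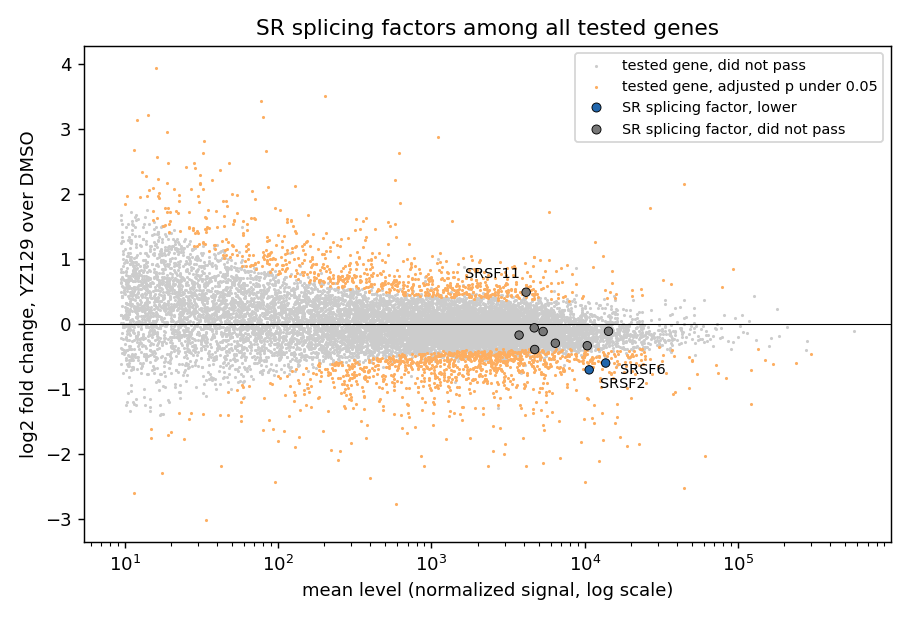
Mean level (normalized signal, log axis) against log2 fold change, YZ129 over DMSO, for all 14812 tested genes; orange dots passed an adjusted p of 0.05 and light grey dots did not. SR factors are the outlined points between levels 3732 and 14293, blue where lower; SRSF2 and SRSF6 lie among the orange dots below 0, and SRSF11 lies at the height of the orange dots above 0 although it did not pass.

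Poison-exon isoforms cannot be told from productive ones at the level of genes. All 10 members have at least 1 transcript of the NMD type in GENCODE release 29, against 35.6% of 19969 protein-coding genes. Together they have 22 such transcripts among 107, from 1 each for SRSF5, SRSF6 and SRSF9 up to 6 for SRSF7. Retained-intron transcripts are annotated for 8 of 10, with SRSF6 and SRSF11 the exceptions, against 46.1% of coding genes. A fold change of SRSF2 or SRSF6 is thus a sum over protein-coding and decay-prone transcripts. The shares of coding genes given here were not matched to the members by mean level or by number of annotated transcripts.

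Decay factors gave a single call, which did not hold under every alternative. Of 15 genes of the exon junction complex and NMD, 1 rose, 0 fell and 14 did not pass, with a median of 0.13. Among all tested genes 5.24% were called higher and 7.64% lower. UPF1, the helicase at the centre of NMD, rose by 0.39 ± 0.14 (adjusted p = 0.049) in the authors' deposited table. UPF1 did not pass at an adjusted p under 0.01 or with the adjustment over every gene with a p-value. Of this list 13 of 15 genes were positive, against 33.1% of all tested genes in the level deciles the list covers, and of the SR factors 1 of 10, against 26.3% in theirs.

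Among kinases and phosphatases of SR proteins, CLK1 rose and no other tested gene passed. Of 12 tested genes 1 rose and 0 fell, against 5.24% and 7.64% of all tested genes. The median of the list was -0.06. CLK1, a nuclear kinase that releases SR proteins from speckles, rose 1.48-fold (0.57 ± 0.16, adjusted p = 0.0039) in the authors' deposited table. In the authors' deposited table its relatives CLK2 (-0.05 ± 0.18), CLK3 (-0.27 ± 0.17) and CLK4 (0.10 ± 0.18) did not pass. The cytoplasmic kinases SRPK1 (-0.08 ± 0.15) and SRPK2 (0.24 ± 0.16), which prepare SR proteins for import, did not pass either in the authors' deposited table.

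Of 8 tested transport genes 1 rose and 0 fell, against 5.24% and 7.64% of all tested genes. The median of these 8 was -0.01. The mRNA export receptor NXF1, which SRSF3 and SRSF7 recruit, rose 1.52-fold (0.61 ± 0.16, adjusted p = 0.0020) in the authors' deposited table. The importin TNPO3, which carries phosphorylated SR proteins into the nucleus, stayed at -0.03 ± 0.13 (adjusted p = 0.92) in the authors' deposited table.

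SR-related proteins carry an arginine- and serine-rich region but lie outside the classical family, and their list here also holds SRSF8 and SRSF12. Of these genes 22 were tested, with 1 rise and 1 fall. The shares of all tested genes were 5.24% higher and 7.64% lower. Their median of 0.13 was on the positive side, against -0.23 for the SR factors. The lists differ in level: 13 of the 22 lie in the upper 2 level deciles, as do all 10 SR factors. After the decile median was taken off, the medians were 0.25 and -0.09. THRAP3, a speckle-associated protein, fell (-0.39 ± 0.13, adjusted p = 0.031), and LUC7L3, linked to the U1 particle, rose (0.43 ± 0.15, adjusted p = 0.031) in the authors' deposited table. The call of THRAP3 was lost at an adjusted p under 0.01 and under both centrings, and that of LUC7L3 at an adjusted p under 0.01. The enhancer-binding proteins TRA2A (0.14 ± 0.15) and TRA2B (-0.34 ± 0.16, adjusted p = 0.15) both missed the threshold in the authors' deposited table.

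The hnRNPs, many of which oppose SR proteins at exons, gave calls in both directions. Of 22 tested genes 3 fell and 1 rose, against 7.64% and 5.24% of all tested genes and 11% and 2.83% in the upper 2 level deciles. Their median of -0.17 was near that of genes of like level: 19 of the 22 lie in the top level decile, whose median was -0.16, and 11 stood above and 11 below the median of their own decile. HNRPDL (now HNRNPDL), an AU-rich RNA binder, fell 1.51-fold (-0.59 ± 0.15, adjusted p = 0.00099), about as far as SRSF6, in the authors' deposited table. PTBP1, the polypyrimidine tract repressor, fell (-0.44 ± 0.13, adjusted p = 0.012), as did HNRNPK (-0.35 ± 0.13, adjusted p = 0.048), in the authors' deposited table. PTBP1 did not pass at an adjusted p under 0.01 or when centred by decile, and HNRNPK passed in only 1 of the 5 alternatives. HNRNPH1, a binder of G-runs, rose (0.47 ± 0.15, adjusted p = 0.021) in the authors' deposited table. Its call ended only at an adjusted p under 0.01. HNRNPA1, the classical antagonist of SRSF1, stood at -0.05 ± 0.15 (adjusted p = 0.88) in the authors' deposited table.

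Early spliceosome genes, whose products SR proteins recruit, gave no call. Of 22 tested genes of the U1, U2 and branch site machinery 0 passed in the authors' deposited table, whose columns are those of DESeq2, while 0 had an unadjusted p under 0.05, against 24.9% of all tested genes. Their median was -0.03. The smallest p belonged to SNRNP70, the U1 protein that SR factors contact, at -0.32 ± 0.16 (adjusted p = 0.20), and to SF3B3 (-0.20 ± 0.14, adjusted p = 0.39), in the authors' deposited table. For the SR factors the same count was 6 of 10 at an unadjusted p under 0.05, 5 lower and 1 higher, of which SRSF2 and SRSF6 passed the adjustment. Differences between the lists were not tested.

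**Figure D5:**
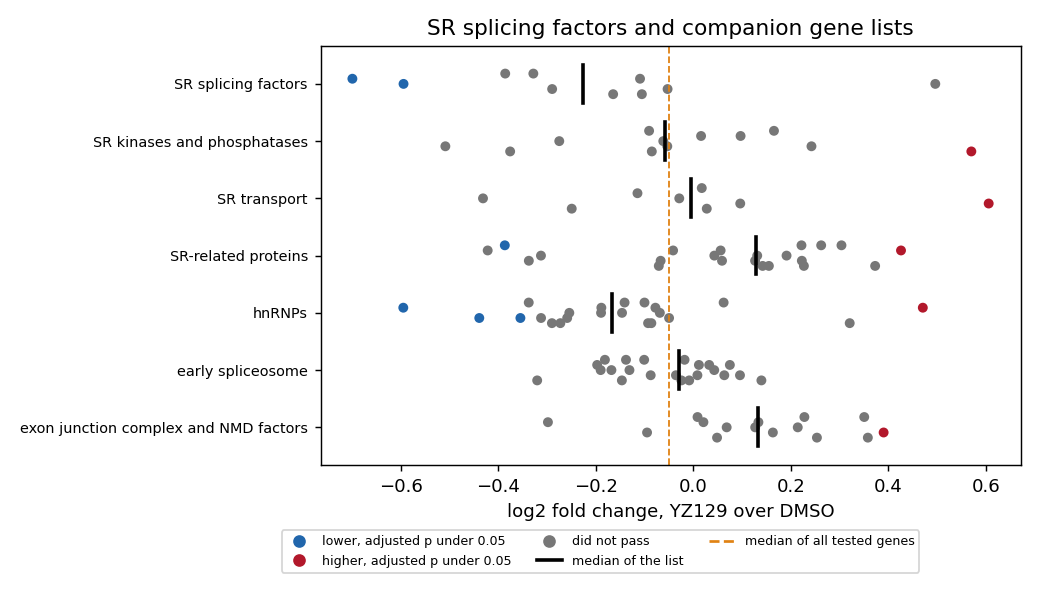
Log2 fold change, YZ129 over DMSO (horizontal axis), of each tested gene in the SR factors and 6 companion lists; blue points passed as lower, red ones as higher and grey ones did not pass, with black bars for list medians and a dashed line for the median of all tested genes (-0.05). SR factors run between -0.70 and 0.50, and early spliceosome genes between -0.32 and 0.14.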

How the data were processed

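Poly(A) RNA of 4 U87 libraries was sequenced, 2 per group by title. Per the submitters' processing notes, hg19, Cuffdiff, Cufflinks 2.2.1 and TopHat2 2.0.12 were used; the counter and annotation are not stated. Per the file headers, the deposited columns are those of DESeq2: a mean normalized signal, a log2 fold change and its SE, the Wald score, its p-value and the adjusted p-value. The deposited score equalled log2 fold change over SE, the p-value its two-sided normal p, and the adjusted p-value a Benjamini-Hochberg adjustment over 14812 genes; 4937 genes, at mean levels up to 9.43, had none and were not tested. The authors' log2 fold changes were moderated towards 0: for genes with 2 reads in a single library, the median by library was at most 0.55 in size. Whole-read steps in the deposited signal matched 36 of 36 lowest levels with 8 libraries (tolerance 1e-07). Total reads are unknown, so no interval on counts is given.

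Computed here (Python 3.11.15, pandas 2.3.3, SciPy 1.17.1) were 95% normal intervals, differences between genes, level deciles, centring and list counts; the code was tested on simulated data. Single genes could not be retested. Named were all members, a fixed set of SR regulators and, per list, up to 5 called genes with the smallest adjusted p, or the 2 with the smallest p where none passed. The members and lists were chosen with earlier results of these data known. HNRNPDL was matched as HNRPDL. The alternatives were an adjusted p under 0.01, an adjustment over every gene or over genes at a mean level from 100 up, and both centrings.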

Additional observations from a re-analysis of the deposited data

How the results depend on the processing

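SRSF2 and SRSF6 were called lower under all 5 alternatives, and no other member was lower under any of them. With fold changes centred by level decile, 1 member was called higher, SRSF11 (0.61, adjusted p = 0.031). The members' median of -0.23 became -0.18 centred on all tested genes and -0.09 by decile, and none of the 7 paralog differences moved by more than its SE. Among companion lists, an adjusted p under 0.01 left 0 SR-related proteins in either direction, 1 hnRNP lower and 0 higher, and 0 exon junction complex and NMD genes higher. That last count was also 0 with the adjustment over every gene. SR-related proteins called lower numbered 2 with the adjustment over genes of mean level at least 100, and 0 under either centring. Centred by decile, 3 SR-related proteins were higher, and 1 hnRNP was lower and 2 higher. The other 48 of 60 list counts stayed within 1.5 times. No replicate could be left out, and no paired analysis was possible because the deposited table holds no values per library. The SEs limit calls to changes of at least 0.36 for SRSF7 and 0.57 for SRSF10.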
